A study of Mus musculus with 8 samples.

Results

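The enzymes that make acyl-CoA in white quadriceps were followed at the level of their transcripts: 5 long-chain acyl-CoA synthetases (Acsl1, Acsl3, Acsl4, Acsl5 and Acsl6), 2 fatty acid transport proteins (Slc27a1 and Slc27a4) and 2 short-chain synthetases (Acss1 and Acss2). These 9 genes were chosen by name, as enzymes that make acyl-CoA, and all 9 were found among the 54091 genes of the table. RNA was sequenced from the white part of the quadriceps of 8 male mice aged 11 to 14 weeks, on a chow diet (Purina 5001), killed in the morning. The 4 control animals have the genotype Loxp/Loxp, that is, Acot2 alleles flanked by sites for Cre recombinase. The 4 others, called Acot2 mKO here, have the genotype CKM Cre with Acot2 removed in muscle. Their Cre is driven by the muscle creatine kinase promoter, which is active in muscle fibres, so other cells of the tissue are not its target. The control label names no Cre, so the presence of the recombinase and the loss of Acot2 cannot be told apart. No strain is named in the labels.

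A free fatty acid cannot be used in a cell until it is joined to coenzyme A. Acyl-CoA synthetases do this at the cost of ATP, and the long-chain forms differ in their membranes and in the fatty acids that they prefer. Acot2 acts in the opposite direction inside mitochondria, where it splits long-chain acyl-CoA into a fatty acid and coenzyme A. Slc27 proteins, named fatty acid transport proteins for their part in uptake, are themselves acyl-CoA synthetases, and the Acss enzymes make acetyl-CoA from acetate.

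Acot2, the targeted gene, separated the groups as labelled. It had 213, 149, 251 and 240 normalized reads in control libraries 1 to 4, and 43.8, 42.8, 53.7 and 48.9 in Acot2 mKO libraries 1 to 4. A normalized read is a read count divided by 1 scaling factor per library, and the libraries held 30415431 to 48834285 reads. Acot2 fell by 2.13 on the log2 scale (SE 0.18, limma adjusted p = 0.000962). Of stretches of 50 bases in the Acot2 transcripts, 27.7% also occur in other genes, mostly in its close copy Acot1, so part of its reads are uncertain. Tissue content differed between libraries. The sum of 8 adipocyte marker genes was 22650 and 9642 normalized reads in control libraries 2 and 3, and 2528 to 4093 in the other 6. Fabp4 made up most of the sum in those 6 (1787 to 2413). Plin1 alone was at 1322 and 586 in control libraries 2 and 3, against 41.6 to 158 in the others. Myh2, the myosin of oxidative fast fibres, was at 73690 and 50370 in control libraries 3 and 4 and at 50680 and 51590 in Acot2 mKO libraries 3 and 4, against 796.8 to 7832 in the others. The sum of 7 slow fibre markers was highest in Acot2 mKO libraries 3 and 4 (6930 and 17890, against 1610 to 2496). In the other 6 libraries most of this sum came from Atp2a2 (1524 to 1829). Myh7 alone was at 2133 and 7430 in Acot2 mKO libraries 3 and 4, against 7.83 to 40.1 in the others. Myh4, the fast glycolytic myosin that marks white muscle, was between 2522000 and 3401000 in all libraries. In a piece of tissue, fewer cells of a type and less RNA per cell cannot be told apart.

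None of the 9 genes passed the test between Acot2 mKO and control muscle. Of all 13638 genes tested, 2 passed (0.0147%) at a limma adjusted p under 0.05. All 9 had an adjusted p = 0.9995. Before adjustment, limma gave 2.91% of all genes a p under 0.05, and 0 of these 9. Both groups overlapped for every one of the 9, and 1.92% of all genes had groups that did not overlap. 4 of the 9 differences lay above 0 and 5 below, with a median of -0.00075 on the log2 scale, beside 0.0049 over all genes tested. They ran from -0.18 for Acss2 to 0.145 for Acsl6.

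**Figure D1:**
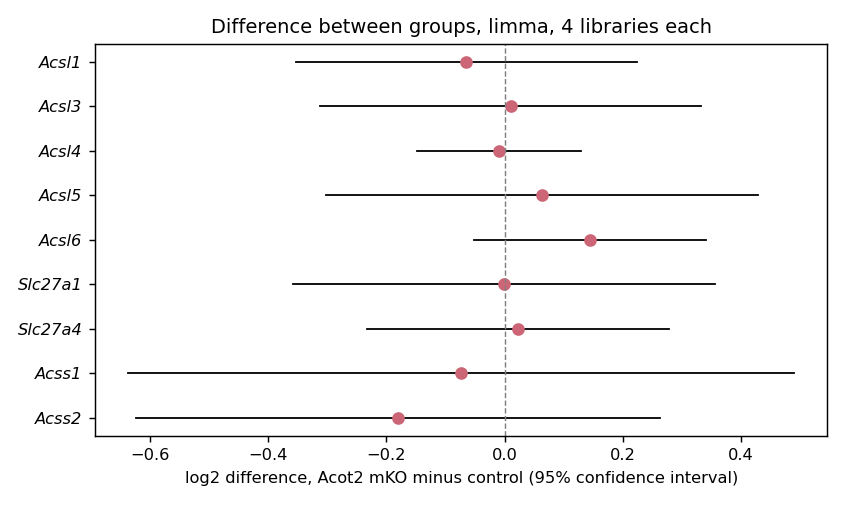
Difference between Acot2 mKO and control muscle for the 9 genes, in log2 units on the horizontal axis, with points for limma estimates and lines for 95% confidence intervals (4 libraries in each group). Every interval includes 0; the narrowest is that of Acsl4 (-0.15 to 0.13) and the widest that of Acss1 (-0.64 to 0.49).

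The promoters shown next belong to Acsl1, Slc27a1, Acss1 and Acss2, the genes whose levels were all above their own mean in the same 3 libraries (control 3 and Acot2 mKO 3 and 4). Each is the stretch from 250 bases before to 50 bases after a transcription start in RefSeq on GRCm38.p6, 5′ to 3′ on the strand of the gene. All 9 genes have an entry, 14 starts in all. Capitals mark the GC box GGGCGG, on either strand. Acsl1 has a pair of starts, upstream at chr8:46470787-46471086 and inner at chr8:46490716-46491015, both on the plus strand. Slc27a1 has 3, of which the most upstream is shown (chr8:71568621-71568920, plus). Acss1 is at chr2:150668191-150668490 on the minus strand and Acss2 at chr2:155517793-155518092 on the plus strand.
Acsl1 upstream start: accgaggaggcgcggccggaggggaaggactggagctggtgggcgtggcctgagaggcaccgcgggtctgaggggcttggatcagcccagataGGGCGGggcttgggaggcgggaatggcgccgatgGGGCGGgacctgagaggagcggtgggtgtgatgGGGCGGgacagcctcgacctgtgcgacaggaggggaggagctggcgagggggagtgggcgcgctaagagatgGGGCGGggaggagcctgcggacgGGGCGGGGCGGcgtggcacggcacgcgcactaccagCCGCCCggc
Acsl1 inner start: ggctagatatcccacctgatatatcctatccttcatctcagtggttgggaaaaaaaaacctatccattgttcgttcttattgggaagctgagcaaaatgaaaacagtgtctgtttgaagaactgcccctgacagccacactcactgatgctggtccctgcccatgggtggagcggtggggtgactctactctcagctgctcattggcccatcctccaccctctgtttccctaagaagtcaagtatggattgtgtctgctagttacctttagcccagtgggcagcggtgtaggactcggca
Slc27a1 upstream start: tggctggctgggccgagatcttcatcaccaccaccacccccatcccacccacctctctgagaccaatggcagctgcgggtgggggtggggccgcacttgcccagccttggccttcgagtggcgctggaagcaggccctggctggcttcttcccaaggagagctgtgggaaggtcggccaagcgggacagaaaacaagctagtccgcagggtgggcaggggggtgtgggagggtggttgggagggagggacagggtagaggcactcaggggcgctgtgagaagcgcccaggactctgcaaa
Acss1: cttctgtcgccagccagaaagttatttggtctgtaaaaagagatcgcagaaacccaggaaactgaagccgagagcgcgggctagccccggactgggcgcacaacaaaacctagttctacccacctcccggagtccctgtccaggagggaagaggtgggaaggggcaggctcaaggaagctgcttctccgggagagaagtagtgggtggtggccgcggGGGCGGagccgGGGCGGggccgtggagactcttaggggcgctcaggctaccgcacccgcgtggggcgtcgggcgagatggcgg
Acss2: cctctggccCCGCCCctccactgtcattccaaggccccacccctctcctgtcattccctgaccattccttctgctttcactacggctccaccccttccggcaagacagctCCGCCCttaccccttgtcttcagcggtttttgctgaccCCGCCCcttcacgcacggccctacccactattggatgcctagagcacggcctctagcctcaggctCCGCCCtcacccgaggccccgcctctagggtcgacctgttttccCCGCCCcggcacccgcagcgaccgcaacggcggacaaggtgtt

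The upstream and inner starts of Acsl1 differ in composition. The upstream window is 74.0% G and C with 30 CG pairs and 7 GC boxes, and the inner window has 4 CG pairs and no GC box. Over all 32851 promoter windows of this length, 35.7% hold a GC box, and the median is 52.7% G and C with 7 CG pairs. Acss2 holds 5 GC boxes and Acss1 2, while the window of Slc27a1 shown holds none and its other 2 windows hold 1 and 3. In all, 11 of the 14 windows hold at least 1 GC box. TCACCCCAC, a form of the sterol response element, matched once in the inner window of Acsl1 and in none of the other 13 windows, where 0.551% of all windows hold it. AGGTCA, the core of nuclear receptor sites, matched only in the most upstream of the 3 starts of Acsl6, where it was found at 2 positions, and 16.3% of all windows hold it. TATAAA, the core of the TATA box, was in none of the 14 windows and in 13.6% of all. CANNTG, the E-box, was in 72.3% of all windows and in 10 of the 14. All motifs were searched on both strands, and a match is a description of letters only. Which starts were used in these libraries was not analysed here.

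Acsl1, the long-chain synthetase that dominates in fat, heart and oxidative muscle, was the most abundant of the 9. It had 8595, 8852, 11864 and 8917 normalized reads in control libraries 1 to 4, and 7609, 7986, 10672 and 10371 in Acot2 mKO libraries 1 to 4. Control library 3 and Acot2 mKO libraries 3 and 4 were the 3 highest, so both groups held high and low animals. Group means were 9557 ± 1544 in control and 9160 ± 1585 in Acot2 mKO muscle (SD, n = 4 each), and the 95% confidence interval of the difference ran from 0.78 to 1.17 times the control level. Without Acot2 mKO libraries 3 and 4 the log2 difference was -0.28 (limma adjusted p = 0.998). This omission sets Myh2-poor Acot2 mKO libraries 1 and 2 against controls that still include Myh2-rich libraries 3 and 4. The part of this imbalance, here and wherever the omission is used below, was not tested. Control library 2, with the highest adipocyte markers, had an Acsl1 level between those of control libraries 1 and 4. Of stretches of 50 bases in Acsl1, 9.23% also occur in another gene, nearly all in Gm45244 on the opposite strand.

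Acsl3, a synthetase of the endoplasmic reticulum and lipid droplets, differed in spread more than in mean; the spread itself was not tested. The 4 controls lay at 1407, 1420, 1423 and 1405 normalized reads, a mean of 1414 ± 9.24. This SD is below what read counting alone would give on average at this level, so it is not a measure of spread between animals. Acot2 mKO libraries 1 to 4 had 1929, 1619, 1133 and 1162, a mean of 1461 ± 384 (SD, n = 4). The first pair lay above every control and the second pair below every control. The second pair also had the high slow fibre markers, and the part of these in the result was not tested. Without it the log2 difference was 0.32 (SE 0.081), which did not pass over all genes either (limma adjusted p = 0.998), against 0.010 (SE 0.15) with all libraries.

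Acsl4, which prefers arachidonic acid, was the steadiest of the 9. It ran from 2029 to 2195 normalized reads in control and from 1926 to 2242 in Acot2 mKO libraries, with means of 2098 ± 81.5 and 2087 ± 138 (SD, n = 4 each). The 95% confidence interval placed it between 0.90 and 1.09 times the control level.

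Acsl6, a synthetase known best from brain and also found in skeletal muscle, had the largest difference above 0. Control libraries 1 to 4 held 800, 685, 686 and 825 normalized reads and Acot2 mKO libraries 770, 800, 932 and 807. Control libraries 2 and 3, those with high adipocyte markers, were the 2 lowest of the 8, and Acot2 mKO library 3 was the highest. The means were 749 ± 73.9 and 827 ± 71.5 (SD, n = 4 each), with a log2 difference of 0.145 (SE 0.089, 95% confidence interval -0.051 to 0.34). Without control libraries 2 and 3 the log2 difference was 0.023 (SE 0.099), and without Acot2 mKO library 3 it was 0.087.

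Acsl5, which is found on the mitochondrial outer membrane and the endoplasmic reticulum, was the least abundant. It had 149, 204, 192 and 156 normalized reads in control libraries 1 to 4, and 158, 165, 168 and 247 in Acot2 mKO libraries 1 to 4. The last of these stood apart from the rest of its group. The means were 175 ± 26.9 and 185 ± 41.9 (SD, n = 4 each), and without Acot2 mKO library 4 the log2 difference turned from 0.064 to -0.084.

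**Figure D2:**
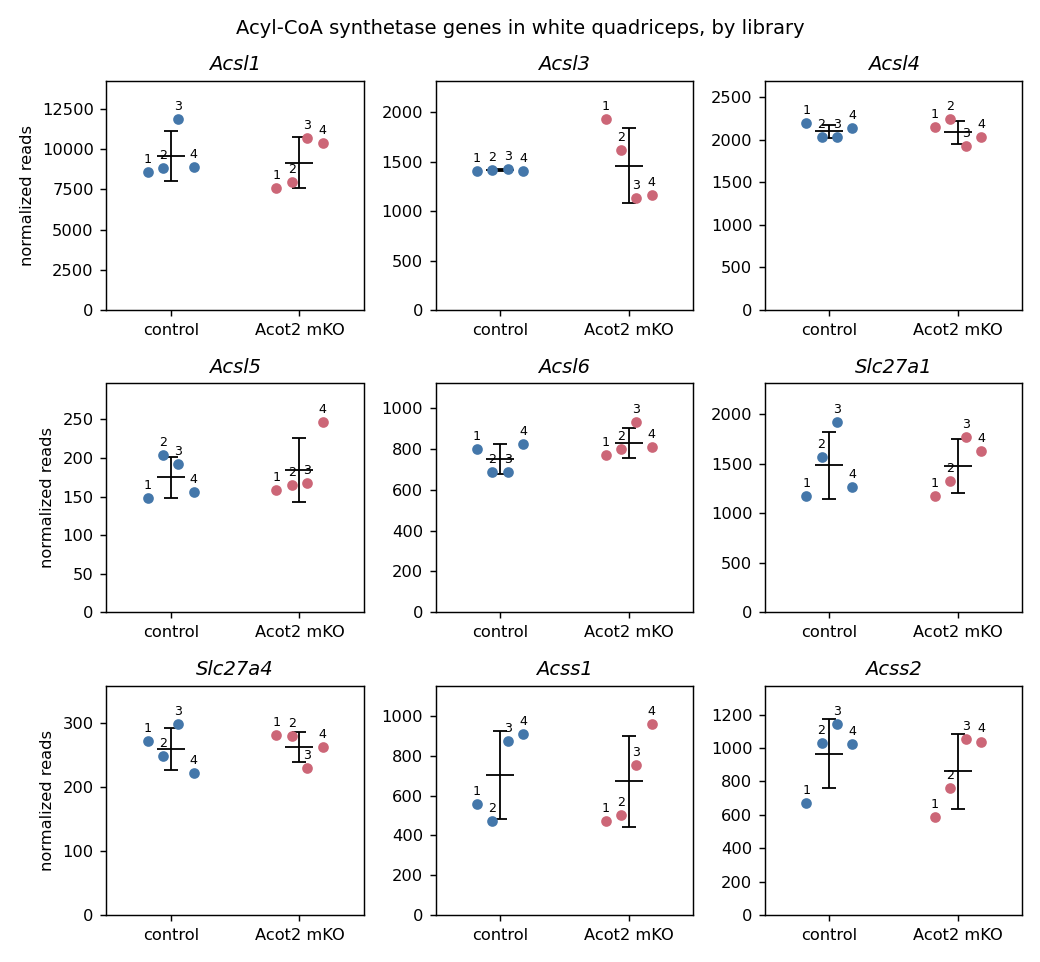
Normalized reads (vertical axes, linear from 0) of the 9 genes in control and Acot2 mKO libraries, with points numbered by library, a bar at each group mean and whiskers of 1 SD (n = 4). The groups overlap in every panel; Acsl3 is within 1405 to 1423 in control and spreads from 1133 to 1929 in Acot2 mKO muscle, and Acss1 falls apart into high and low animals within both groups.

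Slc27a1, the main fatty acid transport protein of muscle, followed a pattern close to that of Acsl1. It had 1171, 1571, 1923 and 1268 normalized reads in control libraries 1 to 4, and 1172, 1328, 1765 and 1630 in Acot2 mKO libraries 1 to 4. Control library 3 and Acot2 mKO libraries 3 and 4 were again the 3 highest. Means were 1483 ± 339 and 1474 ± 272 (SD, n = 4 each), with a log2 difference of -0.00075 (SE 0.16), which was 0.26 (SE 0.15, limma adjusted p = 0.999) without control libraries 2 and 3 and -0.22 (SE 0.18, limma adjusted p = 0.998) without Acot2 mKO libraries 3 and 4.

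Slc27a4, a transport protein of the endoplasmic reticulum with a wide tissue range, was far lower. It ran from 222 to 299 normalized reads in control and from 231 to 281 in Acot2 mKO libraries, with means of 260.5 ± 32.98 and 264 ± 23.5 (SD, n = 4 each). Its extremes, control libraries 4 and 3, lay in the same group.

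Acss1 and Acss2 make acetyl-CoA in mitochondria and in the cytosol and nucleus. Acss1 had 558, 470, 876 and 908 normalized reads in control libraries 1 to 4, and 471, 501, 752 and 959 in Acot2 mKO libraries 1 to 4. The 4 highest libraries were the 4 with the highest Myh2. Each group held 2 of either kind, and the part of fibre content in the levels was not tested. Acss1 means were 703 ± 221 in control and 671 ± 230 in Acot2 mKO muscle (SD, n = 4 each), so that a difference between 0.64 and 1.41 times the control level lay within the 95% confidence interval. The log2 difference was -0.073 (SE 0.26) with all libraries and -0.48 (SE 0.25, limma adjusted p = 0.998) without Acot2 mKO libraries 3 and 4. That omission takes out the Myh2-rich Acot2 mKO libraries and keeps Myh2-rich control libraries 3 and 4, so the groups then differ in fibre content too.

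Acss2 shared this division only in part. It had 668, 1033, 1143 and 1023 normalized reads in control libraries 1 to 4, and 588, 762, 1052 and 1039 in Acot2 mKO libraries 1 to 4. Control library 3 and Acot2 mKO libraries 3 and 4 were the 3 highest, as for Acsl1. Control library 2, the poorest in Myh2 and richest in adipocyte markers, came next at 1033, just above Myh2-rich control library 4 at 1023. Control library 1 and Acot2 mKO libraries 1 and 2, also poor in Myh2, were lowest at 668, 588 and 762. Means were 967 ± 207 and 860 ± 226 (SD, n = 4 each), and the log2 difference was -0.18 (SE 0.20). It was 0.017 without control libraries 2 and 3 and -0.50 (SE 0.20, limma adjusted p = 0.998) without Acot2 mKO libraries 3 and 4.

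Between animals of a group, several of these genes varied more than most genes of like level. The within-group SD of Acss1 was 0.48 on the log2 scale, above that of 98.7% of the 2053 tested genes whose mean lay within 0.5 log2 units of its own. Acss2 (0.37), Slc27a1 (0.30), Acsl3 (0.27) and Acsl1 (0.24) exceeded 97.9%, 97.4%, 95.7% and 91.1% of their like-level genes. This SD is pooled over both groups. For Acsl3 the spread lay in the Acot2 mKO group (SD 384 normalized reads), while the controls were nearly alike (SD 9.24). That control SD is below what read counting alone would give on average. Acsl4 (0.078), Slc27a4 (0.16) and Acsl6 (0.13) were nearer the middle, at 29.6%, 46.0% and 63.6%, and Acsl5 (0.26) at 76.7%.

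**Figure D3:**
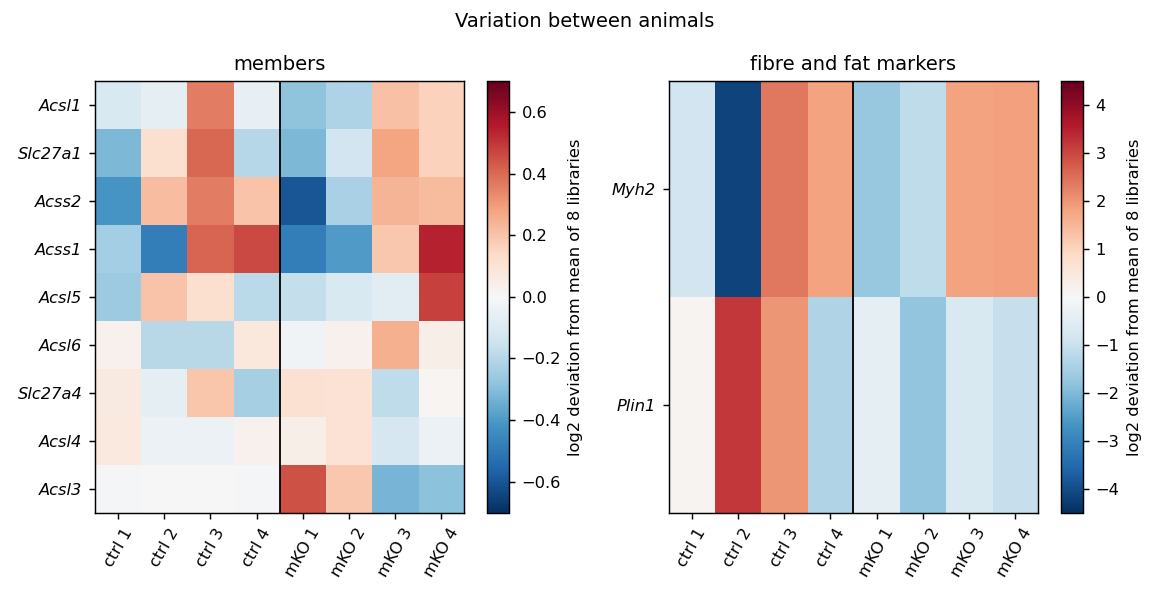
Log2 deviation of each gene from its mean over the 8 libraries, as colour (left, the 9 genes; right, on a wider colour scale, Myh2 of oxidative fast fibres and Plin1 of adipocytes), with libraries in columns and a line between control and Acot2 mKO. Acsl1, Slc27a1 and Acss1 are high in control library 3 and Acot2 mKO libraries 3 and 4, and Acsl3 is low in the last 2 of these. Myh2 is high in these 3 and in control library 4, where Acss1 is high but Acsl1 and Slc27a1 are below their means.

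The genes most alike in pattern were sought among 9346 genes with a mean of at least 100 normalized reads, by Pearson's r of the log2 values over the 8 libraries. These are the highest of many values, share their libraries and are given as a description. For Acsl1 they were Stx7 (r = 0.98), a syntaxin of endosomes, Nudt7 (r = 0.97), a peroxisomal enzyme that cleaves coenzyme A, and Cd36 (r = 0.97), the fatty acid receptor of the cell surface. For Slc27a1 they were Cat (catalase, r = 0.95), Nudt7 again (r = 0.95) and Vwa1 (r = 0.94), a matrix protein. Normalized reads of Nudt7 were 301, 334, 522 and 293 in control libraries 1 to 4 and 269, 295, 455 and 418 in the Acot2 mKO libraries, highest in the same 3 libraries as Acsl1 and Slc27a1. For Acss1 they were Myl12a (a regulatory myosin light chain), Myh13 (the extraocular myosin) and Cnnm4 (r = 0.96 each). Myh13 ran from 58.3 to 71.6 normalized reads in the 4 libraries with low Acss1 and from 140 to 307 in the 4 with high Acss1. For Acsl3 the closest were Xab2, Wdr4 and Bud13 (r = 0.92, 0.91 and 0.91).

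Levels were set side by side between genes only per length, as normalized reads per kb of annotated exons. Over all 8 libraries Acsl1 led with a median of 848 per kb (726 to 1132), above every library of every other gene. Acsl4 (386, 356 to 415) and Acsl3 (325, 260 to 443) came next and overlapped, as did Acsl3 and Slc27a1 (248, 201 to 329.5). Acss1 followed at 159 (114 to 232) and overlapped with Slc27a1, which was above it in 7 of 8 libraries. Acss2 at 101 (57.8 to 113) and Acsl6 at 80.7 (69.1 to 94.0) came after Acss1 and overlapped with each other. Slc27a4 (60.8, 50.3 to 67.8) and Acsl5 (34.2, 30.6 to 50.8) were lowest, and Slc27a4 was above Acsl5 in 8 of 8 libraries. The order depends on the gene model. With the longest transcript in place of all exons, Slc27a1 moved up to rank 2 with a median of 452 per kb. It was then above Acsl4, next in order, in only 4 of 8 libraries. By the same length Acss2 (285) came above Acss1 (181), in 8 of 8 libraries.

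The share of Acsl1 among the long-chain synthetase transcripts differed between groups by less than the spread between animals. Its share of the 5 Acsl genes, per kb, was 49.4%, 51.0%, 58.2% and 50.5% in control libraries 1 to 4, and 43.3%, 45.8%, 57.7% and 56.1% in Acot2 mKO libraries 1 to 4. Acot2 mKO libraries 1 and 2 lay below every control, and 3 and 4 above all but control library 3. The means were 52.3% ± 4.03 and 50.7% ± 7.24 (SD, n = 4 each), and p was 0.714 by exact permutation of the group labels (two-sided, 70 arrangements). Without Acot2 mKO libraries 3 and 4 the difference in share went from -1.54 to -7.73 percentage points, which exceeds the control SD. Its exact permutation p of 0.0667 is the smallest that 2 libraries against 4 can give. Myh2-rich control libraries 3 and 4 stayed in, so the groups then differ in fibre content too, whose part was not tested. With the longest transcript for length the means were 64.3% and 62.6%.

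None of the other 4 Acsl shares passed this test with all 8 libraries. Acsl4 took 22.5% ± 2.22 in control and 22.5% ± 2.17 in Acot2 mKO muscle, Acsl3 18.8% ± 1.33 and 19.7% ± 5.70, Acsl6 4.38% ± 0.648 and 4.86% ± 0.333, and Acsl5 2.08% ± 0.311 and 2.21% ± 0.453 (SD, n = 4 each). In Acot2 mKO library 1 Acsl3 had its largest share, 26.4%, and Acsl1 its smallest. Without Acot2 mKO libraries 3 and 4 the difference in the Acsl3 share went from 0.884 to 5.61 percentage points (exact permutation p = 0.0667, again the smallest possible). The exact permutation p was 0.286 for Acsl6, the smallest of the 7 shares compared, and 0.543 to 0.971 for the other 6. Adjusted over the 7 shares, it was 0.971 for each, where the smallest p that 4 against 4 can give before adjustment is 0.0286. The sum of the 5 isoforms was 1736 ± 139 per kb in control and 1716 ± 54.4 in Acot2 mKO muscle (SD, n = 4 each), highest in control library 3 (1943).

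**Figure D4:**
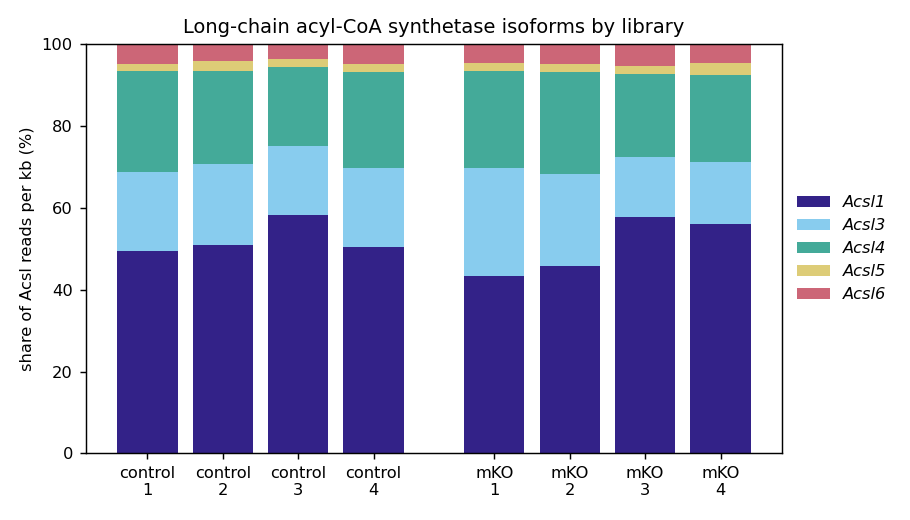
Share of each isoform in the 5 Acsl genes (vertical axis, percent of normalized reads per kb of annotated exons), 1 bar per library, control on the left and Acot2 mKO on the right. Acsl1 takes 43.3% to 58.2%, and Acot2 mKO library 1 has the largest share of Acsl3 (26.4%).

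Slc27a1 made up 80.8% ± 3.01 of the Slc27a1 and Slc27a4 transcripts per kb in control and 80.4% ± 4.19 in Acot2 mKO muscle, and single libraries lay between 75.9% and 85.3% (exact permutation p = 0.857). Without Acot2 mKO libraries 3 and 4 the difference went from -0.391 to -3.78 percentage points (exact permutation p = 0.200). Acss1 took 63.5% ± 7.25 of the Acss1 and Acss2 transcripts in control and 65.4% ± 3.29 in Acot2 mKO muscle (SD, n = 4 each, exact permutation p = 0.800). Control library 2 was the lowest at 52.8%, and the other 7 lay between 61.8% and 69.4%. By the longest transcript the Acss1 share was 41.7% and 43.4%, so which of the pair has the larger share depends on the length used.

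Other acyl-CoA synthetases were mostly scarce in this muscle. Of 15 further family members, 6 had enough reads to be tested, none passed and all 6 lay below 0, with a median log2 difference of -0.34. Acss3, a mitochondrial synthetase with a preference for propionate, averaged 398 ± 86.2 normalized reads in control muscle and 293 ± 41.8 in Acot2 mKO muscle. Aacs, which activates acetoacetate, had 256 ± 154 and 142 ± 26.2, and the medium-chain synthetase Acsm3 39.6 ± 36.7 and 9.60 ± 2.75 (SD, n = 4 each). All 3 were highest in control library 2, at 480, 478 and 90.7, and second highest in control library 3, the libraries with high adipocyte markers, whose part in the result was not tested. Without these 2 libraries the log2 difference went from -0.42 to -0.15 for Acss3 and from -0.70 to -0.15 for Aacs, and Acsm3 had too few reads to be tested. Slc27a2, Slc27a5, Slc27a6, Acsbg1 and Acsm5 had means of at most 5.15 normalized reads in either group, and Acsbg2, Acsm1, Acsm2 and Acsm4 were listed at 0 in all libraries.

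Genes before and after the synthetases were also without a call, apart from Acot2 itself. In fatty acid supply and binding, 5 of 14 tested genes lay above 0 and 9 below (median -0.052), and none passed. The smallest p belonged to Fabp5, a fatty acid binding protein (-0.36, SE 0.15), Acbd6, an acyl-CoA binding protein (0.16, SE 0.077), and Fabp4 (-0.52, SE 0.28), on the log2 scale. Fabp4 is also on the adipocyte marker list. Without control libraries 2 and 3 Fabp4 was at 0.0026, Fabp5 at -0.18 and Acbd6 at 0.15. In acyl-CoA use and fat synthesis, 10 of 17 lay above 0 (median 0.0090) and none passed. Dgat1 (-0.47, SE 0.20), Acaca (-0.82, SE 0.42) and Acly (-0.64, SE 0.44), enzymes of fat synthesis, had the smallest p. Among the 14 and 17 tested genes of these 2 lists, the groups did not overlap for Dgat1 and Acbd6. Over all genes tested, 1.92% had groups that did not overlap. The gap for Dgat1 was narrow, from 193.37 normalized reads in Acot2 mKO library 4 to 194.79 in control library 4. Dgat1, Acaca and Acly were at -0.10, -0.076 and 0.022 without control libraries 2 and 3. In acyl-CoA cleavage and decarboxylation, 8 of 10 lay above 0 (median 0.082), and Acot2 was the 1 gene that passed. Mlycd, malonyl-CoA decarboxylase (0.18, SE 0.10), and Acot9 (0.086, SE 0.090) had the next smallest p. Without control libraries 2 and 3 Mlycd was at 0.22 (SE 0.083, limma adjusted p = 0.9994) and Acot9 at 0.076.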

How the data were processed

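Per the submitters' processing notes, FastQC, cutadapt, STAR, HTSeq and DESeq2 were used and the genome build was GRCm38, with no role or version given. Per the labels, libraries came from a stranded kit, and the strand setting of the counting is not stated there. The deposited values are log2(x + 1), with x a read count scaled by a single factor in each library, as the values themselves show: undone, all values below 1000 reads lay within 0.1 of a whole multiple of 1 step per library (0.708 to 1.22). Animal numbers in the column names tied each column to its sample.

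The log2 values entered limma 3.58.1 (R 4.3.3), with variances moderated on a trend over mean expression. The 13638 genes tested reached 10 normalized reads in 4 or more libraries. P-values were adjusted by Benjamini-Hochberg over all of them. The fit was tested on simulated data. Fold changes carry the pseudocount of 1, which hardly moves genes at these levels. Isoform shares were computed on linear normalized reads per kb of the union of annotated exons (GENCODE M21, GRCm38), which for Acss2 is 10163 bases against 3609 in its longest transcript, and compared with exact permutation tests.

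Alternatives were pseudocounts of 0.5 and 10, no filter, a stricter filter (mean of 100 normalized reads), quantile scaling, trimmed-mean scaling, limma-voom on recovered reads, library weights, a block for adjacent animal numbers, other lengths, and leaving out libraries. Named genes were the 9 genes, up to 3 per list by smallest p and the 3 closest in pattern; the genes listed as scarce were named after their values were seen. The members and lists were chosen with earlier results of these data known. Protein sequences were not used here.

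Libraries of a group differed by far more than sampling noise (chi-square per gene 26.0 to 79.2), so each counted as 1 replicate. Animal numbers point to separate mice. Of stretches of 50 bases in the transcripts, 9.23% in Acsl1 and 0% to 6.13% in the other 8 genes also occur in another gene. Reads within these cannot be assigned with certainty. Low counts limited no result on the 9 genes, which had 135 reads or more in every library; the 4 libraries in a group limited the precision.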

Additional observations from a re-analysis of the deposited data

Results flagged for a closer look

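Of 34 sets of 4 libraries checked (9 genes, 7 shares and Acot2 in each group), 3 held a library far from the others by Dixon's criterion, where chance flags about 1 in 20. Acsl1 in control library 3 reached 11864 normalized reads while the other controls lay between 8595 and 8917, and that library had the highest Myh2. Acsl5 in Acot2 mKO library 4 was at 247 normalized reads against 158 to 168 in the rest of its group, and its share of the Acsl transcripts per kb was 2.88% against 1.94% to 2.04%. That library also had the highest slow fibre markers.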

How the results depend on the processing

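Under all 19 settings tried, 0 of the 9 genes and, among the pathway lists, 1 gene passed the threshold, and Acot2 ran from -2.29 to -2.04 (log2) when each library was left out in turn. The sign of most of the small differences was not stable, and the cause was not tested. Among the 19 settings, the sign of the log2 difference turned in 0 for Acsl6 and in 1 for Acss2. With each library left out in turn, log2 differences ran from -0.144 to 0.0435 for Acsl1, -0.136 to 0.12 for Acsl3, -0.0447 to 0.0283 for Acsl4, -0.0841 to 0.14 for Acsl5, 0.0867 to 0.193 for Acsl6, -0.105 to 0.133 for Slc27a1, -0.0512 to 0.0917 for Slc27a4, -0.266 to 0.0761 for Acss1 and -0.348 to -0.0107 for Acss2. Share differences, in percentage points, ran from -3.88 to 0.936 for Acsl1, -1.37 to 2.52 for Acsl3, -0.99 to 0.832 for Acsl4, -0.0966 to 0.279 for Acsl5, 0.202 to 0.662 for Acsl6, -2.0 to 1.12 for Slc27a1 and -1.73 to 3.53 for Acss1. Quantile scaling turned Acsl3 to -0.000494 and library weights turned Acsl4 to 0.00264. Without Acot2 mKO libraries 3 and 4, Acsl4 was at 0.0659 and Acsl5 at -0.102, and share differences were -7.73 for Acsl1, 5.61 for Acsl3, 1.84 for Acsl4, -0.0856 for Acsl5, 0.36 for Acsl6, -3.78 for Slc27a1 and 0.569 points for Acss1. Without control libraries 2 and 3, Acsl1 was at 0.0488, Acsl5 at 0.251, Slc27a1 at 0.255 and Acss2 at 0.0171, and share differences were 0.781 for Acsl1, -1.43 for Acsl4, -0.0408 for Acsl6, 1.6 for Slc27a1 and -2.6 points for Acss1. Leaving out Acot2 mKO libraries 3 and 4 removes the Myh2-rich libraries of that group and keeps Myh2-rich control libraries 3 and 4. The part of fibre content in the shifts under that setting was not tested. Each control animal has a number next to that of an Acot2 mKO animal, and the labels do not give the meaning of this. A block for adjacent animal numbers changed no call. With it the SE of the log2 difference went from 0.163 to 0.0697 for Slc27a1, 0.131 to 0.0799 for Acsl1 and 0.202 to 0.145 for Acss2. It rose slightly for Acsl6 (0.0893 to 0.0963), Slc27a4 (0.117 to 0.128) and Acss1 (0.256 to 0.259). What such neighbours share was not tested.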
